A study of Mus musculus with 7 samples.

Results

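The 9 genes described here regulate the stem cells of skeletal muscle and their path to fused fibres: Pax7, Cdh15, Myf5, Myod1, Myog, Myf6, Mymk, Mymx and Mstn. They were chosen by symbol, before any filter on counts, from the 56854 gene identifiers present in every count table. All 9 passed the filter on low counts and were among the 17791 genes tested. The samples were whole shoulder joints of 7 mice, 1 RNA-sequencing library per mouse, dissected 2 weeks after surgical repair of the left supraspinatus tendon, a tendon of the rotator cuff. One group was wild type (n = 3) and the other was Tnc-/- (n = 4), which lacks tenascin C, a matrix glycoprotein of tendon and healing wounds. Every joint was an operated one, so no value below describes an uninjured shoulder. The mice's strain, age and sex, and how the Tnc-/- allele was made, are not given in the sources used here.

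Satellite cells are the stem cells of skeletal muscle and lie between a fibre and its basement membrane. Pax7, a paired-box transcription factor, marks them, and M-cadherin, the product of Cdh15, joins them to the fibre. After injury they divide and switch on the myogenic regulatory factors, transcription factors of the basic helix-loop-helix family that bind the E-box, the DNA motif CANNTG. Myf5 and Myod1 mark activated and dividing myoblasts, Myog their differentiation, and Myf6 mature fibres. The membrane proteins myomaker (Mymk) and myomixer (Mymx) then fuse myoblasts with each other or with a fibre. Myostatin (Mstn) is a secreted factor of the TGF-beta family, made by muscle, that limits muscle growth.

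The libraries were not alike. Gene counts ran from 13.5 to 18.5 M in wild type and from 19.3 to 28.2 M in Tnc-/-. The tables of the groups were not made in the same form: wild-type tables had no gene symbols and no rows other than genes, while 30.1 to 32.7% of the reads listed in the Tnc-/- tables stood in rows naming no gene. How the tables were made and genotype therefore cannot be told apart in any comparison below. Tnc itself had 4394 to 8137 counts in wild type and 698 to 1051 in Tnc-/-, where its level was 11.9% of the wild-type mean. Wild-type libraries 2 and 3 stood apart from the other 5. In CPM, that is, counts per M of library total after TMM scaling, they gave 1399 and 982 in sum over 2010 olfactory and vomeronasal receptor genes, which joints are not known to express. The same sum was 89.1 CPM in wild-type library 1 and 36.5 to 43.9 CPM in Tnc-/-. Genes marking muscle, tendon, cartilage, bone, synovial fibroblasts, endothelium, macrophages, marrow and brown fat were all detected, although the tendon factor Scx and the marrow gene Alas2 were listed at 0 in all 7 libraries. Of 7 marrow genes tested, 4 were called higher in Tnc-/-, against 10.3% of all genes. Muscle genes are described below. In RNA from whole joints, fewer cells of a type and less RNA per cell cannot be told apart.

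The starts of 3 members are shown because these factors bind E-boxes and the genes are active at different stages: Myog and Mstn, with E-boxes, and Myf5, with none. The sequences are from RefSeq (GRCm38.p6), whose table used here held 5 of the 9 members, and each lies within the 250 bases before the annotated gene start, leaving out bases in annotated exons. E-boxes are in capitals; CANNTG reads the same on both strands, so each is counted once.
Myog, chr1:134289754-134289988, plus strand: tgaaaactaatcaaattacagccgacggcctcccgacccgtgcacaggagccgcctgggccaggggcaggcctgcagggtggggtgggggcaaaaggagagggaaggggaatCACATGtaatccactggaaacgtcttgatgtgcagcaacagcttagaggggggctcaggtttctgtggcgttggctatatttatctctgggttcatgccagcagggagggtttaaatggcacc
Mstn, chr1:53061390-53061639, plus strand: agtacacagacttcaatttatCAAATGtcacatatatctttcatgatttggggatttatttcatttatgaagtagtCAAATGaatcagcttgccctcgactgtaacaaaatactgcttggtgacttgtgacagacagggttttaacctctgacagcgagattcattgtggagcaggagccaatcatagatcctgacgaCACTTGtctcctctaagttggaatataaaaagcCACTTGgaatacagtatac
Myf5, chr10:107486135-107486384, minus strand: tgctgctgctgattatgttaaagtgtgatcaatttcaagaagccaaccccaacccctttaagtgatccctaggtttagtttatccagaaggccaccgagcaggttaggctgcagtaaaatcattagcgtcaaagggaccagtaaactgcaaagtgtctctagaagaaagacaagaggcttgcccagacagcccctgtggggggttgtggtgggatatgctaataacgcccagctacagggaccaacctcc
In the full window of 250 bases the Myog start had 2 E-boxes, 138 and 12 bases before the start, the nearer one outside the stretch shown. The Mstn start had 4, at 229, 174, 52 and 19 bases, a number reached by 3.84% of 32851 promoter windows of that length. Of the other matched members, Cdh15 had 3 and Pax7 had 0. At least 1 E-box was present in 66.2% of all windows, so its presence does not set these genes apart. The consensus of MEF2, a partner of the myogenic factors, was sought in the strict form YTAWWWWTAR (Y is C or T, W is A or T, R is A or G). It was found in 0 of the 5 windows and in 2.92% of all. The Myog stretch shown holds ctatatttat, which departs from that form only at its last base. Looser MEF2 sites were not searched for, so their absence is not shown.

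Levels in the joint followed a rough order when divided by exonic length (GENCODE M21). In wild type, in CPM per kilobase, Mstn averaged 29.9, Myf6 17.3, Myog 16.4, Mymk 9.89, Myod1 7.28, Mymx 3.84, Cdh15 3.49, Myf5 1.04 and Pax7 0.349. The only neighbours in this order whose libraries did not overlap were Cdh15 and Myf5 (lowest Cdh15 library 2.00, highest Myf5 library 1.31) and Myf5 and Pax7 (0.893 against 0.430). The 2 genes at the bottom, Pax7 and Myf5, are those of the stem cell and its first activation, and those at the top belong to differentiation or to the fibre. In Tnc-/- the order began in the same way, with Mstn at 22.9, Myf6 at 17.0 and Myog at 15.8 CPM per kilobase. Mymk stood below Myod1 and Cdh15 there, at 4.71 against 8.65 and 6.52. Pax7 and Myf5 were again lowest, at 0.784 and 0.496. Among neighbours in the Tnc-/- order only Mymx and Pax7 did not overlap, and barely (1.417 against 1.379).

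Between genotypes, 1 of the 9 members passed the test, Cdh15, which was higher in Tnc-/-. Over all genes tested, 29.0% passed in the same fit, 10.3% higher and 18.7% lower in Tnc-/- (edgeR quasi-likelihood test, Benjamini-Hochberg adjusted p under 0.05), so the members' share of 11.1% was below the background. The median log2 fold change of the 9 was -0.06, against -9.0e-04 for all genes. The satellite cell genes Pax7 and Cdh15 lay on the higher side in Tnc-/-, Myf5 and Mymk on the lower side, and Myog, Myf6 and Mymx near no difference. At an unadjusted p under 0.05 there were 2 members, Cdh15 and Mymk, against 42.3% of all genes tested. In other fits the members' count stayed between 0 and 3. DESeq2 called 2 (Cdh15 and Mymk, 35.1% of all genes) with Benjamini-Hochberg and 0 (9.29%) with Bonferroni adjustment. Limma voom called 0 (5.47%), DESeq2 size factors 0 (28.3%), upper-quartile scaling 0 (27.6%), library totals 1 (Mymk, 30.9%), no filter 1 (Cdh15, 26.3%) and a filter of 10 counts in every library 0 (24.3%). Receptor counts as a covariate gave 0 (2.23%), wild-type library 1 as the sole wild type 1 (Mstn, 4.45%), and leaving out 1 library 0 to 3, where the share of all genes ran from 12.3 to 64.2%. The receptor covariate was higher in every wild-type library than in any Tnc-/- library, so the fit with it cannot fully tell receptor counts and genotype apart. P-values measure the spread between these 7 samples, and the sources used here do not say how the mice were raised or allotted.

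**Figure D1:**
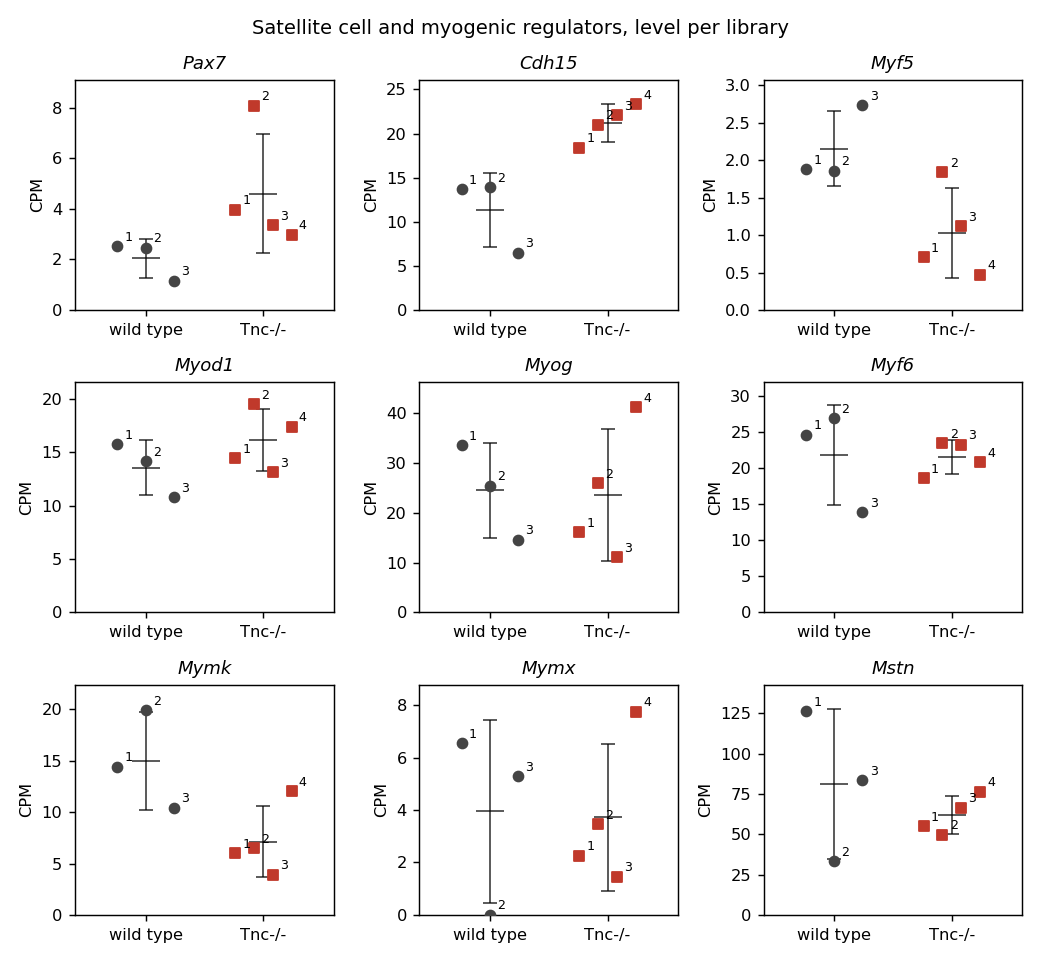
Normalised level of each member in each library, in CPM scaled by TMM, on a linear axis from 0 per panel; points are single mice marked by replicate number, and bars give the group mean and SD (wild type n = 3, Tnc-/- n = 4). The groups do not overlap for Pax7 and Cdh15 (higher in Tnc-/-) and Myf5 (lower), and Mymx is at 0 in wild-type library 2.

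Pax7 was scarce, with 47, 37 and 19 counts in wild-type libraries 1 to 3 and 107, 145, 60 and 57 in Tnc-/- libraries 1 to 4. Its level was 2.52, 2.46 and 1.15 CPM in wild type and 3.96, 8.08, 3.36 and 2.98 CPM in Tnc-/-. Every Tnc-/- library stood above every wild-type library, and Tnc-/- library 2 was the highest by far. The means were 2.05 ± 0.772 CPM (SD, n = 3) and 4.59 ± 2.36 CPM (SD, n = 4), a 2.25-fold difference that did not pass the test (log2 fold change 1.16, SE 0.55, edgeR adjusted p = 0.142). Groups without overlap in this direction were common, at 17.7% of all genes tested. Without Tnc-/- library 2 the log2 fold change of Pax7 was 0.74 (edgeR adjusted p = 0.361). Without wild-type library 1 it was 1.44 and passed (edgeR adjusted p = 0.0356), in a fit where 64.2% of all genes passed.

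Cdh15, the M-cadherin gene, rose. Its level was 13.7, 13.9 and 6.50 CPM in wild type and 18.4, 21.0, 22.1 and 23.3 CPM in Tnc-/-. The Tnc-/- libraries were close together and all above the wild type, where library 3 was low. Mean levels were 11.4 ± 4.21 CPM (SD, n = 3) and 21.2 ± 2.11 CPM (SD, n = 4), so Tnc-/- was 1.87-fold higher (log2 fold change 0.90, SE 0.28, edgeR adjusted p = 0.0425). The direction was the same in all 18 other fits, from 0.59 to 1.15, but the call was kept in 3 of them. Leaving out any single library other than wild-type library 1 ended it, with edgeR adjusted p from 0.0526 to 0.1099, and scaling by library totals gave 0.0941. The mature muscle list described below lay on the same side, and Cdh15 relative to that list is given there.

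Among the myogenic regulatory factors, Myf5 was the only one whose groups did not overlap, and it was on the lower side in Tnc-/-, as were 17.4% of all genes tested. Its counts were 35, 28 and 45 in wild type and 19, 33, 20 and 9 in Tnc-/-. Its level was 1.88, 1.86 and 2.73 CPM in wild type and 0.70, 1.84, 1.12 and 0.47 CPM in Tnc-/-, so that Tnc-/- library 2 lay just under the wild type. The 2.09-fold difference did not pass the test (log2 fold change -1.06, SE 0.61, edgeR adjusted p = 0.215), although it kept its sign in 17 of 17 other fits that tested the gene. The receptor genes, a gauge of reads without expression, averaged 0.0444, 0.696 and 0.488 CPM per gene in the wild-type joints, in library order, and 0.0182 to 0.0218 CPM per gene in the Tnc-/- joints. With receptor counts as a covariate the log2 fold change of Myf5 was -0.77 (edgeR adjusted p = 0.726), and with wild-type library 1 as the sole wild type it was -0.88 (edgeR adjusted p = 0.454).

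Myod1, which marks activated myoblasts, had 15.7, 14.2 and 10.75 CPM in wild type and 14.4, 19.5, 13.1 and 17.4 CPM in Tnc-/-, overlapping groups with means of 13.5 ± 2.54 (SD, n = 3) and 16.1 ± 2.88 CPM (SD, n = 4). Its log2 fold change was 0.25 (SE 0.23, edgeR adjusted p = 0.451).

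Myog, the factor of differentiating myocytes, varied more within the groups than between them. It had 33.6, 25.4 and 14.6 CPM in wild type and 16.05, 25.96, 11.0 and 41.2 CPM in Tnc-/-, so that the highest and the lowest of the 7 libraries were both Tnc-/-. Its log2 fold change was -0.06 (SE 0.45, edgeR adjusted p = 0.935). Myf6, the factor of mature fibres, had 24.6, 26.9 and 13.9 CPM in wild type and a narrow 18.6, 23.5, 23.2 and 20.8 CPM in Tnc-/-. The log2 fold change of Myf6 was -0.02 (SE 0.24, edgeR adjusted p = 0.963), and other fits gave either sign.

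Neither fusion gene passed the test, and their patterns differed. Mymk had 14.4, 19.9 and 10.45 CPM in wild type and 6.03, 6.52, 3.92 and 12.03 CPM in Tnc-/-. Libraries 1, 2 and 3 of Tnc-/- lay below all wild-type libraries, and library 4 lay within the wild-type range. Mean levels were 14.9 ± 4.76 CPM (SD, n = 3) and 7.12 ± 3.46 CPM (SD, n = 4), a 2.10-fold difference that just missed the test (log2 fold change -1.07, SE 0.41, edgeR adjusted p = 0.0794). The gene lay on the lower side in all 18 other fits, from -1.45 to -0.80, and passed in 4 of them, among them the fits without Tnc-/- library 4 (edgeR adjusted p = 0.0436) and without wild-type library 1 (0.0383).

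Mymx, which encodes the partner of myomaker in fusion, had 122, 0 and 87 counts in wild type and 61, 62, 26 and 148 in Tnc-/-. The 0 in wild-type library 2 allows at most 0.199 CPM (3 counts), while Mymk in the same library was at its highest. In CPM, Mymx stood at 6.55, 0 and 5.28 in wild type and at 2.26, 3.45, 1.46 and 7.74 in Tnc-/-. The groups overlapped (log2 fold change -0.09, SE 1.15, edgeR adjusted p = 0.964). Without wild-type library 2 the log2 fold change was -0.66, also short of the threshold (edgeR adjusted p = 0.513).

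Mstn was the most abundant member and varied widely in wild type, with 126, 33.4 and 83.3 CPM. In Tnc-/- it had 55.0, 49.6, 66.4 and 76.5 CPM, all within that range. The log2 fold change was -0.39 (SE 0.37, edgeR adjusted p = 0.464). Wild-type library 1 decided its sign. Set alone against Tnc-/- it gave -1.03, past the threshold (edgeR adjusted p = 0.0203, with the spread taken from Tnc-/-), and without it the value was 0.17. The covariate of receptor counts moved it most, to -1.53 (edgeR adjusted p = 0.0653), and gave -1.64 for Mymx and -0.72 for Myog (edgeR adjusted p = 0.587 and 0.589).

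**Figure D2:**
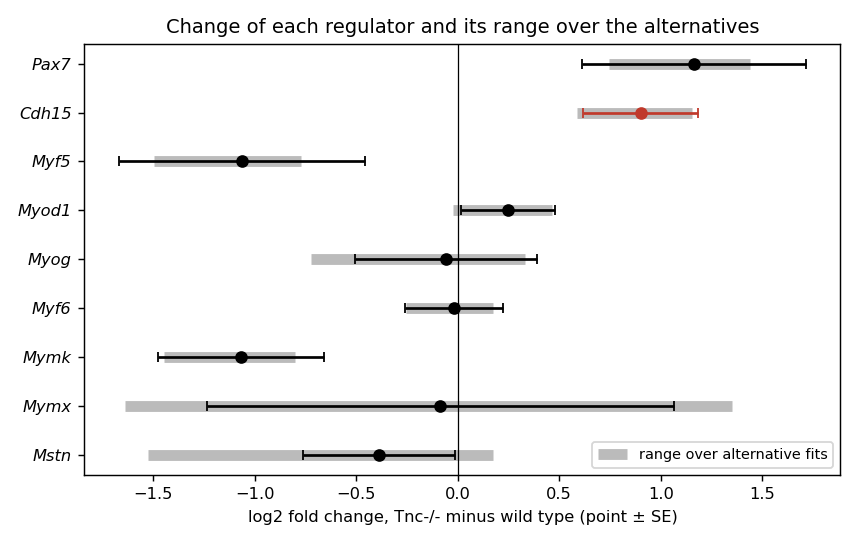
Log2 fold change of each member, Tnc-/- over wild type, with its standard error (edgeR, 7 libraries); the grey bar spans the values in the other fits, and the colour marks the member that passed the test. Cdh15 passed at 0.90; the bars of Myog, Myf6, Mymx, Myod1 and Mstn cross 0.

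A joint holds more or less muscle as it is dissected, so each member was also set beside the muscle RNA of its own library. The mature muscle list, 30 genes of the sarcomere, calcium release and energy supply, had a mean log2 CPM of 10.14, 9.63 and 9.55 in wild type and 10.12, 10.78, 10.35 and 10.26 in Tnc-/-. The difference of 0.60 on the log2 scale lay within the overlap of the groups (exact two-sided permutation test, p = 0.114, with 0.0571 the smallest possible). All 30 genes had a positive log2 fold change, with a median of 0.54. Among them Tnnc2 was near the floor, with 0 counts in wild-type library 2 and at most 42 in any library, and another gene overlaps its exons. Of the 30, 6 passed the test, all higher in Tnc-/-. These 20% lie above the 10.3% of all genes called higher and below the 29.0% called in either direction. They included Myh4, the fastest myosin heavy chain, with a wild-type mean of 3881 ± 579 CPM (SD, n = 3) against 8775 ± 1238 CPM (SD, n = 4), and Ryr1, the calcium release channel, which differed by 1.28 on the log2 scale (SE 0.26, edgeR adjusted p = 0.00992). Mybpc2 and Actn3, a myosin-binding protein and an actinin of fast fibres, rose by 0.82 and 0.72, but their calls were kept in 9 and 5 of the 18 other fits. That of Actn3 was lost without any single library other than wild-type library 1 (edgeR adjusted p from 0.0550 to 0.119). Without wild-type library 1 the count was 25, in the fit where 64.2% of all genes passed. With library 1 as the sole wild type it was 0, in a fit with fewer samples where 4.45% passed; the median was then 0.27, with Myh4 at 0.95 and Ryr1 at 0.83.

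Relative to muscle, Mymk was the member furthest from the wild type. Its log2 CPM minus the list's mean was -6.24, -5.28 and -6.09 in wild type and -7.42, -7.97, -8.20 and -6.61 in Tnc-/-. Here the groups did not overlap: all 4 Tnc-/- libraries, library 4 included, lay below all 3 wild-type libraries. The mean difference was -1.68, or 3.20-fold less Mymk per muscle RNA, with p = 0.0571, the smallest the exact two-sided permutation test can give. Myf6 also separated, at -5.49, -4.86 and -5.70 in wild type and -5.87, -6.20, -5.78 and -5.85 in Tnc-/-, a difference of -0.57 with the same exact p of 0.0571. For Myf6 the gap between the groups was narrow, the difference was -0.33 without wild-type library 2, and the groups overlapped in CPM.

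The other members measured this way overlapped between genotypes. Mstn differed by -0.81, Myog by -0.75 and Myod1 by -0.36, while Pax7 and Cdh15 differed by 0.35 and 0.34 (exact permutation p from 0.114 to 0.4). The 7 members with at least 10 counts in every library were tested, and this design cannot reach 0.05. Cdh15 thus overlapped between genotypes once muscle RNA was taken as the base. Myf5, not tested for its low counts, lay at -8.89, -8.39 and -7.85 in wild type and from -10.3 to -9.55 in Tnc-/-. As a background, 29.9% of 14223 genes with as many counts separated on the lower side by this measure and 0.823% on the higher side, so 2 of 7 lower is near the background. The directions of all 7 were kept in the 11 alternatives run for this measure, and the Mymk difference then ran from -1.99 to -1.38.

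**Figure D3:**
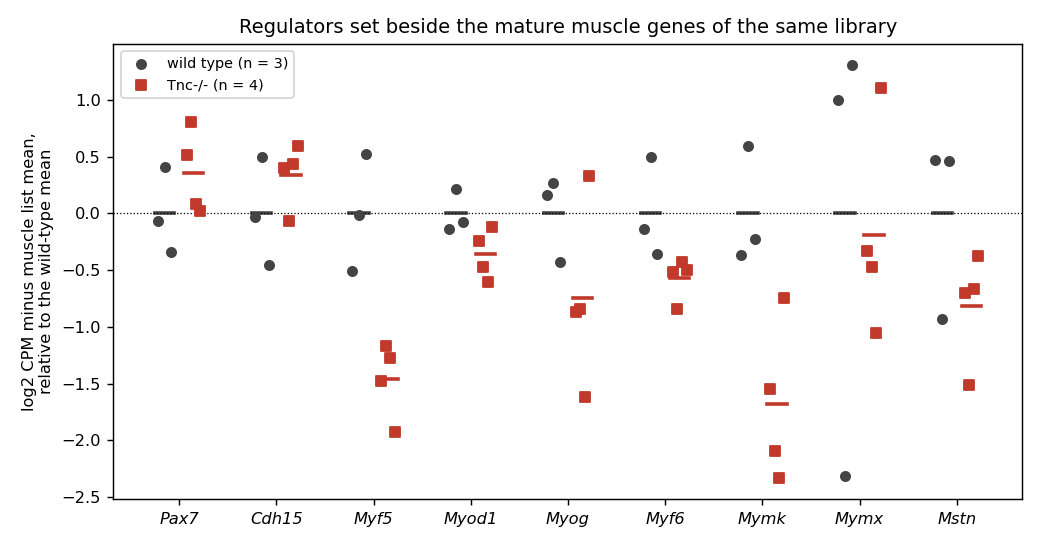
Log2 CPM of each member minus the mean of the 30 mature muscle genes of the same library, drawn relative to the wild-type mean; points are libraries and short bars group means (wild type n = 3, Tnc-/- n = 4). For Mymk, Myf6 and Myf5 all Tnc-/- points lie below the wild-type points; Pax7 and Cdh15 overlap, with means of 0.35 and 0.34.

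Mymk is a known target of myogenin, and the ratio of their counts was taken after the values of both were seen, so it is a description with no test. There were 0.430, 0.785 and 0.717 Mymk counts per Myog count in wild type and 0.376, 0.251, 0.355 and 0.292 in Tnc-/-. Each Tnc-/- joint thus held fewer Mymk reads per Myog read than any wild-type joint, including the joint with the most Myog. The log2 difference was -0.99 and stayed between -1.25 and -0.82 when any 1 library was left out. Pax7 per Myod1 was 0.147 ± 0.0351 in wild type (SD, n = 3) and 0.279 ± 0.101 in Tnc-/- (SD, n = 4), with an exact permutation p of 0.114. Mymk per count of Chrng, the fetal acetylcholine receptor subunit of new or denervated fibres, was 2.10 ± 0.309 and 1.88 ± 0.381 (exact permutation p = 0.4), and Myog per Myod1 was 1.76 and 1.41 (exact permutation p = 0.4).

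Within Tnc-/-, the genes of differentiation and fusion ranked the 4 joints in 1 order, a pattern noticed in these values and given as a description. Myog, Mymk and Mymx were each highest in library 4, then 2, then 1, and lowest in library 3, with 3.74-, 3.07- and 5.32-fold between the ends. Of 15 detected genes of newly formed fibres, 7 had the same order: Myh8, Myl4, Tnnt2, Chrna1, Chrng, Chrnd and Mybph. That order, 1 of 24 possible, was found in 3.51% of all genes tested. The other 8 did otherwise: Cd24a was lowest in library 4, Rapsn, H19 and Musk were highest in library 2, and Igf2bp2 in library 3. Myh8, the perinatal myosin heavy chain, had 87.0, 90.8, 45.8 and 143 CPM in Tnc-/- libraries 1 to 4, and Chrng 3.18, 3.90, 1.62 and 7.74 CPM. Embryonic myosin, Myh3, had 54.7, 83.4, 27.2 and 81.0 CPM, an order of 2, 4, 1 and 3 from high to low. Myod1 had the same order as Myh3, with 1.49-fold between its ends. Myf6 and Cdh15 had other orders and 1.26- and 1.27-fold between their ends, and Pax7 was highest in library 2 and lowest in library 4. The muscle list itself was highest in library 2 and lowest in library 1.

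**Figure D4:**
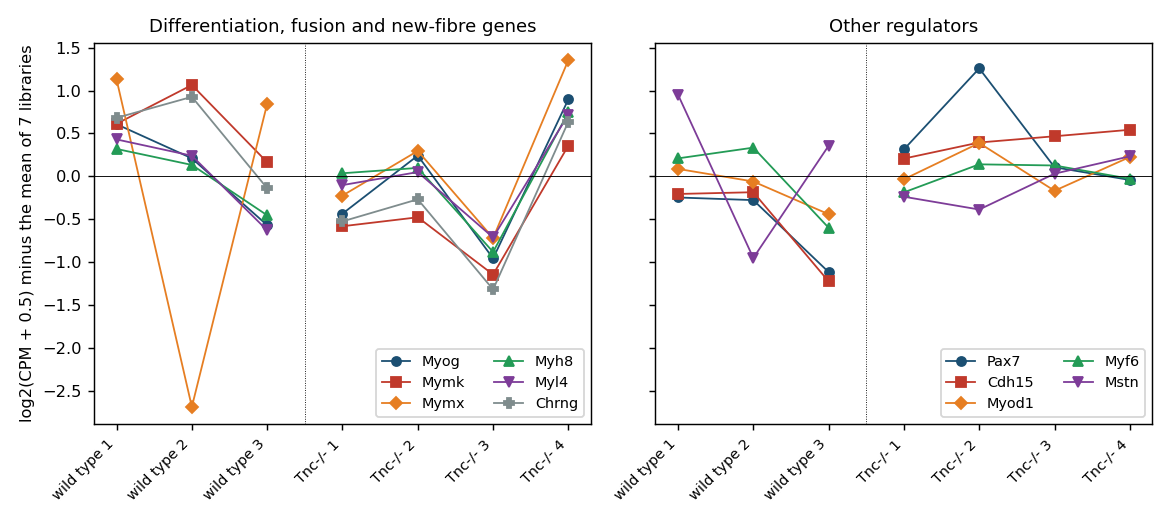
Log2(CPM + 0.5) of each gene minus its mean over the 7 libraries; the left panel holds Myog, Mymk, Mymx and the new-fibre genes Myh8, Myl4 and Chrng, the right panel Pax7, Cdh15, Myod1, Myf6 and Mstn. Lines join a gene's points only to guide the eye, since libraries have no order; among the 4 Tnc-/- libraries the left panel's genes are highest in library 4 and lowest in library 3, while Mymk and Chrng are higher still in wild-type libraries 1 and 2.

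Over all 7 libraries, the genes most like Myog in log2 CPM, of 16617 compared, were Ttc17 (Pearson r = 0.970), Myl4 (0.964), a myosin light chain of embryonic muscle, and Crym (0.960). Those most like Pax7 were Trim55 (0.975), a sarcomere-bound ubiquitin ligase, Cers1 (0.969) and Coq3 (0.964). Those most like Mstn were Pgrmc1 (0.989), Gm32618 (0.986) and Arl1 (0.983). Among the members, Pax7 and Myod1 had r = 0.81, Pax7 and Cdh15 0.78, Myod1 and Cdh15 0.72, Myod1 and Myog 0.70, Myog and Mymk 0.66 and Mymx and Mstn 0.82, while Myf5 and Cdh15 had -0.75. Mymx and Mstn were both lowest in wild-type library 2, where Mymx had 0 counts, and their correlation was not taken without it. All these correlations describe 7 points that share their libraries' muscle content, depth and genotype, and they carry no test.

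Genes that act beside the members were taken as 6 lists of 117 genes, 109 of them tested. In all, 11 were called higher and 15 lower in Tnc-/- (edgeR), or 23.9%, with a median log2 fold change of -0.0047. Both are near the values for all genes. With receptor counts as a covariate, where 2.23% of all genes passed, none of the called pathway genes named below did, although not all folds shrank. Since the covariate itself separates the genotypes, calls can be lost in this fit whatever part the receptor counts play. In that fit Notch3 stood at 1.09, while Jag2 (0.53), Sdc3 (0.37), Mef2d (0.49), Cdh2 (-0.48), Acvr2a (-0.60), Rbpj (-0.36) and Eya4 (-0.40) kept their sign at a smaller size. Acvr1b (0.22), Hdac5 (0.18), Furin (0.10), Vcam1 (0.09) and Calcr (-0.09) were nearer to 0. Over the 18 other fits, the calls of Mef2d, Jag2, Eya4, Cdh2 and Acvr2a were kept in 15 or 16. Those of Sdc3, Hdac5, Hdac9, Notch3, Rbpj, Igf2bp2 and Acvr1b were kept in 12 to 14, and that of Ncam1 in 9. Exons of another gene overlap those of Notch1, Notch3, Sdc3, Hgf, Mef2d, Hdac5, Ncam1, Myl4, Acvr2a and Furin, and of the muscle genes Ryr1, Mybpc2 and Tnnc2 (GENCODE M21), so the counts of these genes may be affected. For Rbpj, Calcr, Vcam1, Hes1, Hey1, Heyl, Notch2, Dll1 and Jag1, named below, overlaps were not checked. The share called in each list below is to be read against the 29.0% of all genes (10.3% higher, 18.7% lower). Over the 18 other fits the number called ran from 0 to 13 in the niche and Notch list and from 1 to 17 among the cofactors. It ran from 0 to 9 among fusion partners, 0 to 11 in the myostatin pathway, 0 to 5 among newly formed fibre genes and 0 to 3 among growth factors. In those fits 2.23 to 64.2% of all genes passed.

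The satellite cell niche and Notch list, which holds surface molecules and receptors of these cells and Notch genes that keep them at rest, had 5 genes higher and 2 lower of 26 (26.9% called), with a median of 0.10. The receptors Notch1 and Notch3 and the ligand Jag2 rose, whereas Rbpj, the DNA-binding effector of Notch, fell by 0.45 (SE 0.11, edgeR adjusted p = 0.0165), and so did Calcr, a calcitonin receptor of resting satellite cells, by 2.00 (SE 0.57, edgeR adjusted p = 0.0309). The target genes Hes1, Hey1 and Heyl had log2 fold changes of 0.0016, 1.4e-04 and 0.23, and none of them passed, nor did Notch2 (0.04), Dll1 (0.51) or Jag1 (-0.32). Calcr had 1.77, 5.38 and 7.41 CPM in wild type, with its high values in libraries 2 and 3, and 0.89 to 1.46 CPM in Tnc-/-; its log2 fold change was -0.55 with library 1 as the sole wild type (edgeR adjusted p = 0.564). Notch1, a receptor that keeps satellite cells quiescent, had 22.7, 19.1 and 27.8 CPM in wild type and 65.8, 46.1, 71.99 and 51.1 CPM in Tnc-/-. The groups did not overlap (log2 fold change 1.34, SE 0.21, edgeR adjusted p = 0.0067). It passed in 17 of 18 other fits, including that with wild-type library 1 alone (1.37), and with receptor counts as a covariate its log2 fold change was about as large, 1.33, at an edgeR adjusted p of 0.0804. The ligand Jag2 rose from 20.5 ± 4.91 (SD, n = 3) to 42.0 ± 4.17 CPM (SD, n = 4), Notch3 by 0.70, the syndecan Sdc3, a proteoglycan of the satellite cell surface, by 1.04, and the adhesion molecule Vcam1 by 0.68. The calls of Calcr and Vcam1 were kept in 6 and 4 of 18 other fits, and both were lost without any single library other than wild-type library 1. Endothelium and other joint tissues also express Notch genes, and of the endothelial list 1 of 7 genes was called higher and 2 lower (42.9%, against 29.0% of all genes).

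Of the 8 tested genes in the list of growth factors that wake satellite cells, which also holds the nitric oxide synthase gene Nos1, 1 was called (12.5%). Hgf, the ligand of the receptor Met, fell, from 4.08, 10.2 and 6.74 CPM in wild type to 2.33, 2.28, 2.63 and 0.89 CPM in Tnc-/- (log2 fold change -1.78, SE 0.52, edgeR adjusted p = 0.0343). The call was kept in 6 of 18 other fits and lost without any single library other than wild-type library 1 (edgeR adjusted p from 0.0726 to 0.119). With library 1 as the sole wild type Hgf stood at -1.01 (edgeR adjusted p = 0.239), and with receptor counts as a covariate at -0.60. Igf1, which drives myoblast growth, averaged 332 ± 75.4 (SD, n = 3) and 235 ± 30.2 CPM (SD, n = 4) and did not pass (edgeR adjusted p = 0.0802). It lay on the lower side in all 18 other fits and passed in 4 of them, among them DESeq2 with Benjamini-Hochberg adjustment (DESeq2 adjusted p = 0.0143).

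Of 26 cofactors and antagonists of the myogenic factors, 4 were called higher and 6 lower (38.5%), with a median of -0.01. Mef2d, a MEF2 factor of the fibre, rose from 119 ± 23.3 (SD, n = 3) to 220 ± 21.4 CPM (SD, n = 4), and Hdac5, a histone deacetylase that holds MEF2 in check, rose by 0.82. Hdac9, of the same deacetylase class, fell, with 22.8, 116 and 84.5 CPM in wild type and 10.3 to 16.2 CPM in Tnc-/- (log2 fold change -2.39, SE 0.46, edgeR adjusted p = 0.00929). Its high values were those of wild-type libraries 2 and 3, as were the receptor counts. With library 1 as the sole wild type its value was -0.68 (edgeR adjusted p = 0.123). Eya4, a coactivator of muscle genes, fell by 1.05.

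Among 16 tested partners of fusion, 0 rose and 2 fell (12.5%), with a median of -0.15. Cdh2, N-cadherin, which joins myoblasts before fusion and occurs in many other cells, fell from 48.6 ± 3.48 (SD, n = 3) to 31.3 ± 1.97 CPM (SD, n = 4); the fitted value was -0.63 on the log2 scale (SE 0.12, edgeR adjusted p = 0.0095). Its wild-type libraries were close together, at 45.1, 52.1 and 48.4 CPM. Adgrb3, a receptor of the same adhesion class as the fusion receptor Adgrb1, had 1.07, 72.2 and 48.4 CPM in wild type and at most 0.33 CPM in Tnc-/-. Its level in wild type was thus that of the libraries with high receptor counts, and its log2 fold change went from -7.61 to -2.42 with library 1 as the sole wild type (edgeR adjusted p = 0.221).

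Newly formed fibre genes had a median of -0.22, with 0 higher and 2 lower of 15 (13.3%). The 2 were Ncam1, the neural adhesion molecule of immature and denervated fibres, with 39.1, 85.4 and 73.6 CPM in wild type and 30.8 to 40.5 CPM in Tnc-/-, and Igf2bp2, an RNA-binding protein of myoblasts, with 7.25, 30.2 and 20.05 against 4.14 to 5.77 CPM. Both were high in wild-type libraries 2 and 3, and with library 1 as the sole wild type the log2 fold change of Ncam1 went from -0.98 to -0.23 and that of Igf2bp2 from -1.96 to -0.56. The part of the receptor counts in the falls of Hdac9, Adgrb3, Ncam1, Igf2bp2 and Tll1 was not tested apart from these fits. With those counts as a covariate their log2 fold changes lay between -0.68 and 0.61.

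Of 18 tested genes of the myostatin pathway, 2 rose and 2 fell (22.2%), with a median of 0.11. They act on both sides of the ligand. Furin, a protease that cuts the myostatin precursor, rose from 76.4 ± 19.6 (SD, n = 3) to 122 ± 15.5 CPM (SD, n = 4), a call kept in 7 of 18 other fits and lost without any single library other than wild-type library 1 (edgeR adjusted p from 0.0524 to 0.111). With library 1 as the sole wild type its log2 fold change was 0.30 (edgeR adjusted p = 0.339). Tll1, of the protease family that frees the latent ligand, fell, with 4.78, 24.7 and 23.4 CPM in wild type and 3.81 to 5.24 CPM in Tnc-/-. Its log2 fold change went from -1.93 to -0.06 with library 1 as the sole wild type (edgeR adjusted p = 0.937), and its call was kept in 7 of 18 other fits. Of the receptors, the type II receptor Acvr2a fell by 1.07 (SE 0.21, edgeR adjusted p = 0.00877), from 33.4, 47.5 and 44.6 CPM in wild type to 16.0, 25.96, 18.4 and 19.2 CPM in Tnc-/-. The type I receptor Acvr1b rose, from 35.6 ± 10.01 (SD, n = 3) to 62.9 ± 6.23 CPM (SD, n = 4). These genes also serve activins and other ligands in many cell types of the joint.

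**Figure D5:**
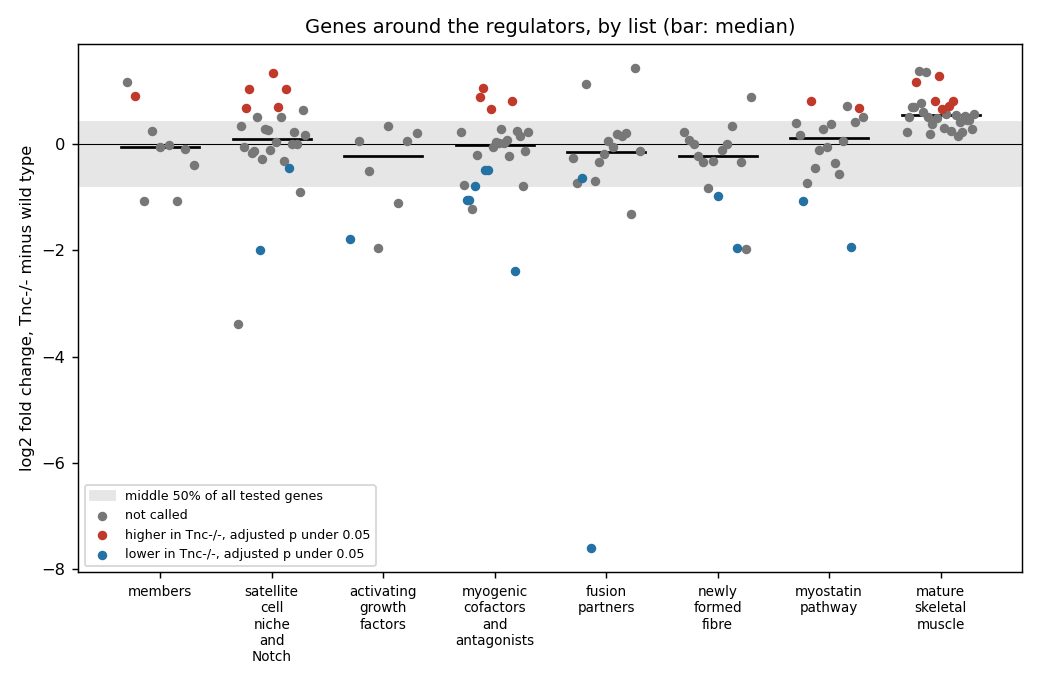
Log2 fold change, Tnc-/- over wild type, of every tested gene of the members, of the 6 lists and of the mature muscle list (points; called genes coloured), with the list median as a bar; the band holds the middle 50% of all tested genes, from -0.78 to 0.41. All 30 mature muscle genes lie above 0, with a median of 0.54, while the medians of the 6 lists lie between -0.22 and 0.11.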

How the data were processed

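Poly(A) RNA of whole shoulder joints was sequenced, 1 library per mouse, and mice were assigned to wild type or Tnc-/- from the labels. The authors deposited raw read counts per gene, 1 table per library. Per the submitters' processing notes, FastQC 0.11.9, HISAT2 2.2.1, HTSeq 2.0.2 and DESeq2 1.38.3 were used with the builds GRCm39 and mm39; the strand setting and annotation release are not given in the sources used here. Rows naming no gene (30.1 to 32.7% of listed reads, Tnc-/- tables) were left out, and 0 columns of values were unmapped.

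All 56854 shared identifiers entered edgeR 4.0.16 (R 4.3.3): default filterByExpr, TMM, robust quasi-likelihood F test with genotype as the sole term, and Benjamini-Hochberg adjustment over the 17791 genes tested. CPM are counts scaled by the TMM-adjusted library total in M. Fold changes are Tnc-/- over wild type, and the SE is the log2 fold change over the square root of F. Differences from the muscle list used log2(CPM + 0.5) and exact permutation over 35 splits. Exonic lengths and overlaps came from GENCODE M21 (GRCm38), another build than the counts, so no coordinates of counted genes are given. Intervals and floors cover counting error only. Scripts were tested on simulated data.

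The members, lists and tests were chosen with earlier results of these data known. Named besides the members are, by rule, at most 4 called genes per pathway list by p (the 2 lowest p where fewer than 2 passed), the 4 lowest p of the muscle list, and the 3 genes most correlated with Pax7, Myog and Mstn. The other Notch list genes, the new-fibre genes in the order of Tnc-/- libraries, Scx and Tnnc2 were chosen after their values were seen. The alternatives were DESeq2 1.42.0, limma 3.58.1 (voom), 3 other scalings, 2 other filters, a receptor covariate, a replicate block, leaving out each library, and wild-type library 1 alone.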

Additional observations from a re-analysis of the deposited data

How the results depend on the processing

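Of the members, Cdh15 and Mymk passed with DESeq2 and Benjamini-Hochberg adjustment (2); 0 passed with DESeq2 and Bonferroni adjustment (the study's stated method), limma voom, DESeq2 size factors, upper-quartile scaling, at least 10 counts in every library, a receptor covariate or a replicate block (at an unadjusted p under 0.05: 2, 2, 2, 2, 3, 1 and 2). Library totals gave 1, Mymk. Leaving out 1 library gave 0 to 3, with 3 (Mymk, Pax7, Cdh15) without wild-type library 1, and wild-type library 1 alone, added after the data were seen, gave 1, Mstn. The cause was not tested. Over all genes, 5159 calls became 1653 with DESeq2 and Bonferroni adjustment, 973 with voom, 397 with the covariate, 1932 with the replicate block, 825 with wild-type library 1 alone and 2229 to 14113 without 1 library. The share of lower calls, 64.5%, was 83.1% with DESeq2 and Bonferroni adjustment, 27.3% with voom, 52.6% with the covariate, 54.3% with the block, 43.2% with wild-type library 1 alone and 82.7% with library totals, which moved the median over all genes to -0.24. Signs reversed for Myf6 (voom 0.017, no filter 0.060, replicate block 0.042), Mymx (voom 1.35), Myog (no filter 0.012), and, with the covariate, Myod1 (-0.023), Hdac9 (0.0010), Igf2bp2 (9.7e-05), Ncam1 (0.068) and Tll1 (0.61). Leaving out 1 library at a time gave -0.47 to 0.33 for Myog, -0.26 to 0.17 for Myf6, -0.73 to 0.57 for Mymx and -0.76 to 0.17 for Mstn. The labels do not say whether the replicate numbers pair the mice. Deviations of same-numbered libraries correlated at -0.0091, 0.109 and -0.0050, and those of differently numbered libraries from -0.109 to 0.104, which cannot settle it. The pseudocount-0 setting used 29 of the 30 muscle genes. Myf5 and Pax7, with at most 145 counts, are limited by depth.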

Other observations

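The empty Mymx value was not the only one of its kind. Genes with 0 counts in 1 library and at least 20 in each of the other 6 numbered 5 in wild-type library 1, 11 in library 2 (Mymx among them) and 8 in library 3, against 0 in each of the 4 Tnc-/- libraries. In wild-type library 3 they included Arc, Acod1 and Ciita. The wild-type tables differ from the Tnc-/- tables in form and listed identifiers (56980 against 56941), and whether the zeros arose in counting or in the tissue was not tested. Of the listed pathway and tissue genes, 6 were at 0 in all 7 libraries, namely Fgf2, Igf2, Msc, Actc1, Scx and Alas2, and 4 of these 6 overlap exons of another gene in GENCODE M21.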
